A study of Arabidopsis thaliana with 22 samples.

Results

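The plastid genes for the plastid-encoded RNA polymerase are rpoA (ArthCp055), rpoB (ArthCp014), rpoC1 (ArthCp013) and rpoC2 (ArthCp012). They were picked from the plastid gene annotation by name and are 4 of 112 plastid genes analysed. The data are ptATAC-seq libraries of chloroplasts from leaves of Arabidopsis thaliana (wild type, ecotype Col0). In this assay the Tn5 transposase inserts adapters into plastid DNA, and counts are given for each position. The 2 groups are the Nucleoid fraction, in which plastid DNA is packed with protein and RNA, and the Naked fraction, plastid DNA taken as the bare background that Tn5 also cuts unevenly. Both came from rosette leaves of young soil-grown plants under long days, and the protocol given for both includes formaldehyde fixation of the chloroplasts. The labels do not say how the Naked DNA was freed of protein, nor whether numbered replicates came from separate plants, so p-values measure the spread between these samples, which may be technical.

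The plastid-encoded polymerase is a bacterial-type enzyme that transcribes most photosynthesis genes of the chloroplast. Its core is built from the alpha subunit (rpoA), the beta subunit (rpoB), and the beta' and beta'' subunits (rpoC1 and rpoC2), while the sigma factors that direct it to promoters are encoded in the nucleus. The genes rpoB, rpoC1 and rpoC2 form an operon, transcribed in that order mainly by a separate, nucleus-encoded phage-type polymerase. The gene rpoA lies elsewhere, at the end of a long unit of ribosomal protein genes. All 4 are read from the strand opposite to the position numbering, so transcription runs toward lower positions. All lie in the large single copy region, where reads are not shared with an inverted repeat.

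The columns of Nucleoid replicates 9 and 10 were identical at all 154477 positions. They were therefore counted as 1 sample, called replicate 9. This left 10 Nucleoid libraries with totals of 202725 to 1813905 counts and 11 Naked libraries with 105763 to 1195649. Of the libraries with more than 600000 counts, here called deep, 8 were Nucleoid and 5 Naked. Signal is a gene's mean count per position, in percent of the average position of that library's plastid genome. At 100 a gene equals the genome mean, and genes of different length can be compared. It is relative within a library, so overall openness is not measured. The shallowest library gave 514 counts in rpoA and at least 1812 in each of the other 3 genes. If counts are independent, the counting error is 4.41% for rpoA and at most 2.35% for the others.

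The gene rpoA had more signal in nucleoids than in naked DNA, rpoC1 and rpoC2 were higher by a smaller amount, and rpoB was at the same mean level in both. Signal at rpoA ran from 101 to 114 in Nucleoid libraries, with a median of 108, and from 75.8 to 103 in Naked libraries, with a median of 93.0. All 10 Nucleoid libraries lay above the Naked median and 7 lay above every Naked library, while 9 of 11 Naked libraries lay below every Nucleoid library. The means were 107 ± 4 (SD, n = 10) and 91.7 ± 8.1 (SD, n = 11), which gives 0.23 on the log2 scale (SE 0.05, adjusted p = 0.00222 by limma), or 1.17-fold with a 95% interval of 1.09 to 1.26. The spread of rpoA between libraries was 4.04% of the mean in nucleoids and 8.87% in naked DNA. The lowest value, 75.8, came from Naked replicate 6, which was the library with the fewest counts.

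**Figure D1:**
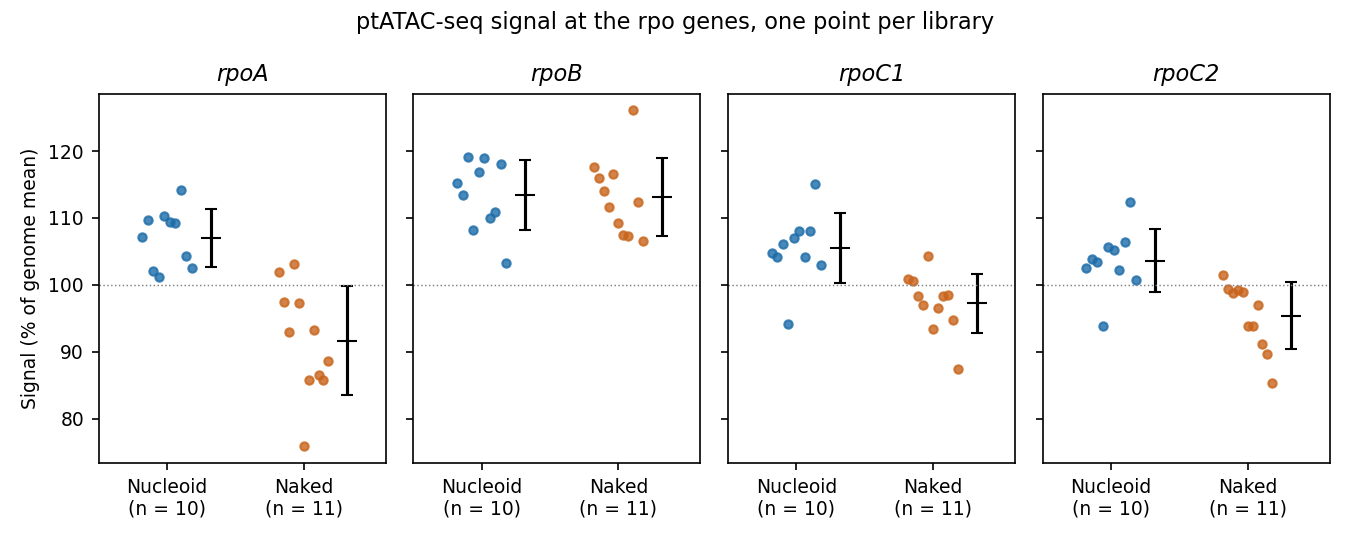
Signal at each rpo gene (y axis, percent of the genome mean; the dotted line is the genome mean) for every Nucleoid and Naked library (points), with the mean and SD beside them. The Nucleoid points of rpoA lie between 101 and 114 and 7 of 10 are above all Naked points, whereas at rpoB the groups overlap with means of 113 in both; the y axis does not start at 0.

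For the beta' gene rpoC1, signal ran from 94.1 to 115 in nucleoids (median 105) and from 87.4 to 104 in naked DNA (median 98.4). The groups overlapped, with 6 of 10 Nucleoid libraries above every Naked one and Nucleoid replicate 4 at the low end. The log2 fold change was 0.12 (SE 0.04, adjusted p = 0.0277). For the beta'' gene rpoC2, the range was 93.8 to 112 in nucleoids (median 104) and 85.4 to 102 in naked DNA (median 97.0), and 8 of 10 Nucleoid libraries lay above every Naked one. Its log2 fold change was also 0.12 (SE 0.04, adjusted p = 0.0257). The beta gene rpoB differed from both. Its range was 103 to 119 in nucleoids (median 114) and 107 to 126 in naked DNA (median 112), with no Nucleoid library above every Naked one. The fold change of rpoB was 1.00, with a 95% interval of 0.947 to 1.06 (log2 fold change 0.0035, SE 0.04, adjusted p = 0.951).

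Thus 3 of the 4 genes passed the test, all with higher signal in nucleoids. Over all 112 genes 33.9% passed, 9.82% as higher and 24.1% as lower, and of the 78 protein-coding genes 23.1% passed, 14.1% as higher and 8.97% as lower. The sizes have to be read against the scaling, since the median fold change of all genes was itself 0.10 when libraries were scaled to their mean and -0.05 when they were scaled to their median 200 bp window, a shift of the whole set. Relative to the median gene, the change was 0.12 for rpoA, 0.01 for rpoC1, 0.02 for rpoC2 and -0.10 for rpoB. With the window median as the scale rpoA no longer passed (0.07, adjusted p = 0.344) and the values of rpoC1 and rpoC2 turned negative (-0.04 and -0.03, adjusted p = 0.646 for both). The median scale called 31 genes, of which 3.23% were higher, against 28.9% of 38 calls with the mean as scale, and scaling to the large single copy region called 33, of which 15.2% were higher. By fold change rpoA ranked 34 of 112, rpoC2 52, rpoC1 55 and rpoB 65.

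**Figure D2:**
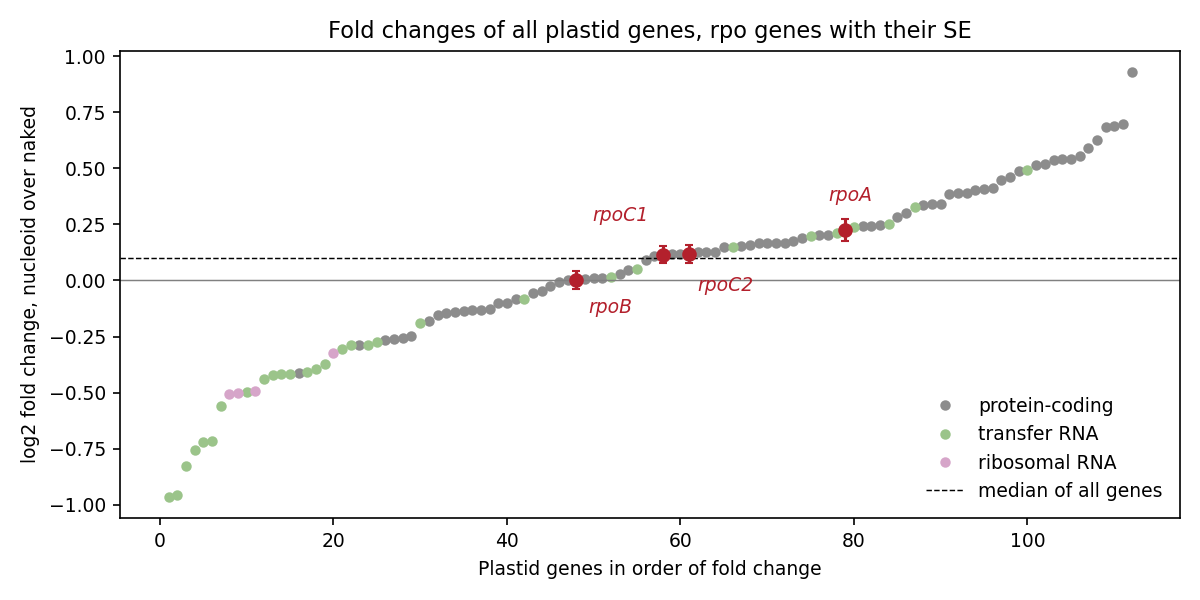
Log2 fold change of Nucleoid over Naked signal (y axis) for the 112 plastid genes in rising order (x axis), coloured by kind of gene, with the rpo genes in red and bars for their SE; the dashed line is the median of all genes, 0.10. rpoA lies above that line at 0.23, rpoC1 and rpoC2 lie on it at 0.12, and rpoB lies below it at 0.0035.

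Depth differed between the fractions and moved with these values. In deep libraries rpoA was at 108 ± 4 in nucleoids (SD, n = 8) and 98.5 ± 4.1 in naked DNA (SD, n = 5). In the remaining libraries it was at 102 and 104 in the 2 Nucleoid ones and at 85.9 ± 5.7 in the 6 Naked ones (SD). Naked libraries with few counts thus had the lowest rpoA signal on average. Not each of them did, since Naked replicate 8, not deep, was at 93.3 and Naked replicate 3, deep, at 93.0. With log2 depth as a covariate the log2 difference at rpoA was 0.17 (limma adjusted p = 0.0137), and it was 0.13 among deep libraries (adjusted p = 0.0402). For rpoC1 it was 0.10 and 0.06 (adjusted p = 0.0987 and 0.303) and for rpoC2 0.10 and 0.05 (adjusted p = 0.0987 and 0.407), so neither passed in either fit. Over all genes the depth fit called 20, of which 1 was higher in nucleoids. The fit of deep libraries called 15, of which 1 was higher. In both fits the gene called as higher was rpoA. The calls of rpoC1 and rpoC2 were also lost without any 1 of replicates 6, 7, 8 and 9, with adjusted p of up to 0.0740 and 0.0614.

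**Figure D3:**
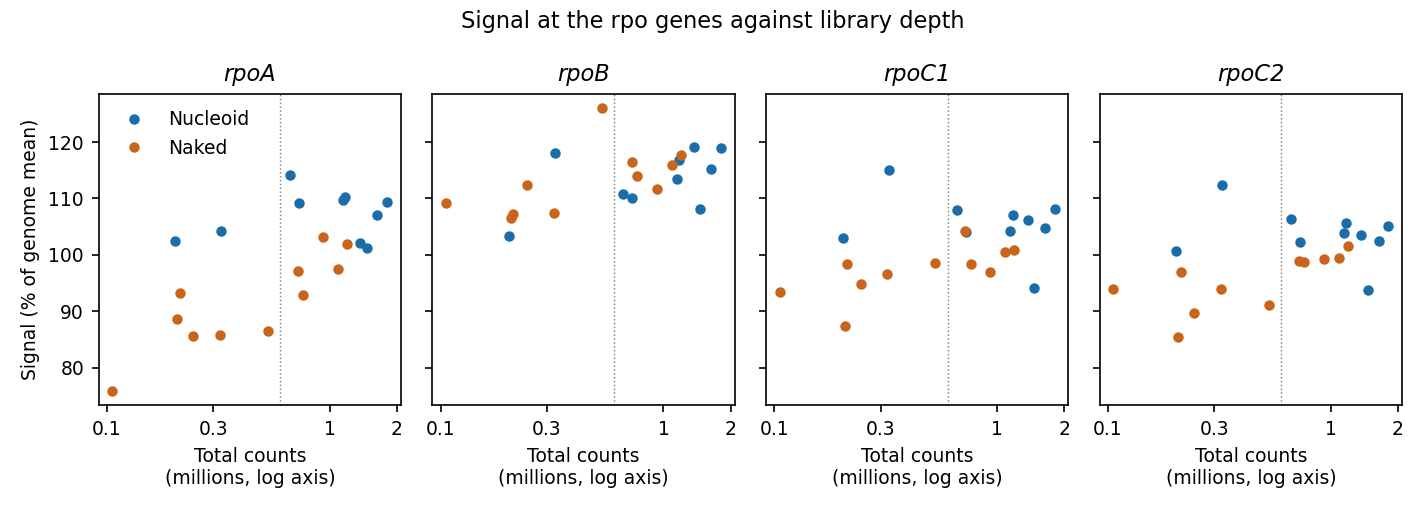
Signal at each rpo gene (y axis, percent of the genome mean) against the total counts of the library (x axis, log axis), with the dotted line at 600000 counts. Naked libraries left of the line lie lowest on average at rpoA, with a mean of 85.9 against 98.5 right of it. At rpoA, rpoC1 and rpoC2 the means of the fractions lie closer together right of the line than left of it. This is not so at rpoB. The y axis does not start at 0.

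The operon and rpoA were next compared within each library, which removes the scaling. The log2 ratio of rpoA to the 3 operon genes together ran from -0.14 to 0.08 in nucleoids (median 0.01) and from -0.38 to 0.01 in naked DNA (median -0.12). Nucleoids had about as much signal in rpoA as in the operon, with 6 of 10 libraries above 0, while naked DNA had less in rpoA, with 1 of 11 above 0. The means were -0.0027 ± 0.068 (SD, n = 10) and -0.15 ± 0.11 (SD, n = 11), a difference of 0.15 (SE 0.04, two-sided permutation test, p = 0.00108, adjusted over 3 ratios 0.00162). The difference kept its side of the threshold in every alternative run, including depth in the model (0.11, adjusted p = 0.0148) and deep libraries alone (0.10, exact permutation, adjusted p = 0.0256). The operon itself was at 107 ± 5 in nucleoids (SD, n = 10) and 102 ± 4 in naked DNA (SD, n = 11).

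The operon did not move as one block. The log2 ratio of rpoC2, the last gene, to rpoB, the first, was below 0 in every library, from -0.21 to -0.04 in nucleoids (median -0.14) and from -0.47 to -0.15 in naked DNA (median -0.22). All 10 Nucleoid libraries lay above the Naked median, and 6 lay above every Naked library. The difference of the means was 0.12 (SE 0.03, two-sided permutation test, p = 0.00076, adjusted 0.00162). Naked replicates 9, 10 and 11 had the lowest ratios, from -0.47 to -0.32. Without them the difference was 0.07 (exact permutation, adjusted p = 0.0104), and among deep libraries it was 0.06 (exact permutation, adjusted p = 0.0256), so it passed at a smaller size.

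**Figure D4:**
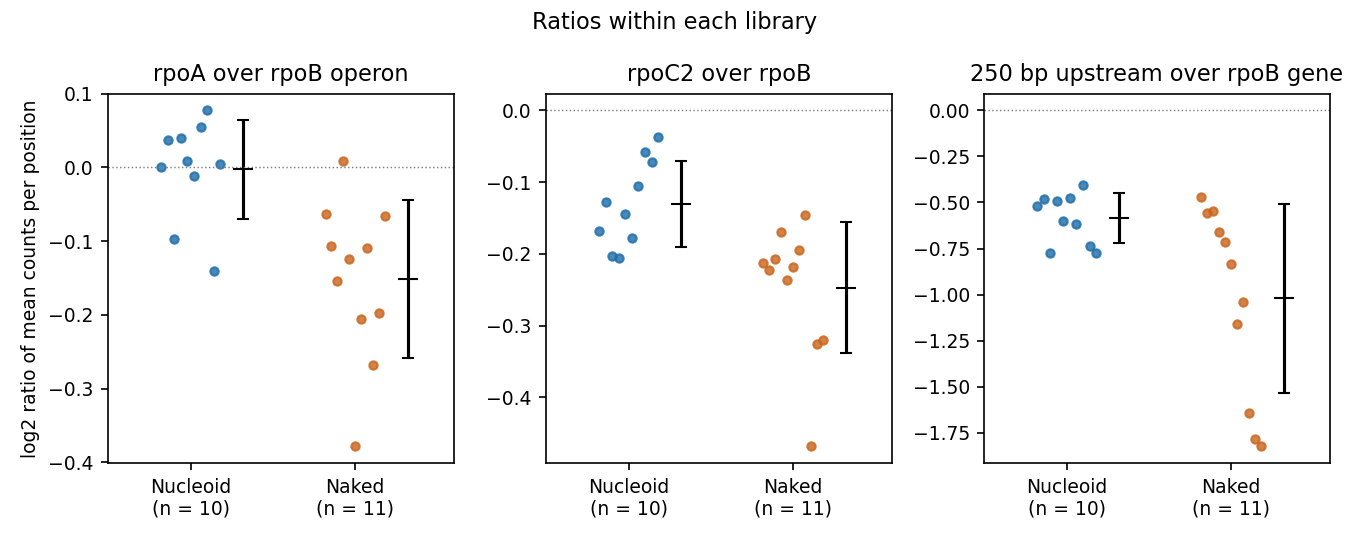
Log2 ratios of mean counts per position within each library (y axis, a separate scale in each panel) for rpoA over the rpoB operon, rpoC2 over rpoB, and the 250 bp upstream of rpoB over the rpoB gene; points are libraries, with the mean and SD beside them. Nucleoid values centre on -0.0027 in the first panel against -0.15 in naked DNA, and Naked replicates 9 to 11 form the low group in the third.

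The order of levels within a fraction was tested over the 12 gene pairs by exact sign-flip permutation tests within libraries, two-sided. In nucleoids rpoB was highest, above rpoC1 and rpoC2 in 10 of 10 libraries (adjusted p = 0.00391 for both) and above rpoA in 9 of 10 (exact permutation, adjusted p = 0.0167). It was followed by rpoA and rpoC1, which did not differ beyond their spread (0.02 on the log2 scale, exact permutation, adjusted p = 0.375). rpoC1 exceeded rpoC2 in 10 of 10 libraries by a mean of only 0.03 (exact permutation, adjusted p = 0.00391), while rpoA and rpoC2 did not pass (0.05, adjusted p = 0.0661). In naked DNA rpoB was again highest, above each of the other 3 in 11 of 11 libraries (exact permutation, adjusted p = 0.00391), and rpoA was last. There rpoA was below rpoC1 in 8 of 11 libraries (log2 ratio -0.09, exact permutation, adjusted p = 0.0352) but did not differ beyond the spread from rpoC2 (-0.06, adjusted p = 0.0625). Among the 112 genes rpoA ranked 45 by Nucleoid level and 66 by Naked level, and rpoB ranked 37 and 42.

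Signal was uneven inside each gene, and the course along the gene was alike in both fractions. Each gene was divided into 10 equal parts from the start of the gene, in the direction of transcription. At rpoA the mean signal was 131 in the first part and 155 in the second part in nucleoids, and fell to 66.9 in the last part. In naked DNA the same parts had 122, 158 and 51.5. The log2 differences between the fractions were 0.10, -0.02, 0.32 and -0.02 in the first 4 parts and lay between 0.30 and 0.55 in each of the last 6. Their median was 0.10 over the first 5 parts and 0.42 over the last 5. Among deep libraries these medians were 0.10 and 0.10, so the larger difference toward the end of rpoA was not seen there. The third part and the fifth part kept theirs, at 0.32 and 0.42 in deep libraries, while the last 5 lay between 0.02 and 0.20. These values, and those of the parts of the other genes, are a description, without a test of the parts.

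At rpoB the differences were positive at the start. The first 3 parts had 93.5 to 95.5 in nucleoids and 74.5 to 83.2 in naked DNA, with log2 differences of 0.44, 0.23 and 0.23. The last 2 parts had 124 and 131 against 137 and 143, with differences of -0.13 and -0.12. Over all libraries, the equal means of rpoB thus combined a start that was higher and an end that was lower in nucleoids. Among deep libraries the same parts differed by 0.03, -0.02 and -0.01 at the start and by -0.04 and -0.02 at the end. The limits of rpoC1 include its intron, whose signal was not separated from that of the exons. At rpoC1 the lowest signal lay in the third part, 64.1 and 50.9, and the differences were largest there and in the fourth part (0.34 and 0.31, or 0.24 and 0.10 among deep libraries). At rpoC2 the fifth to the eighth part had differences of 0.28 to 0.43, and the first 3 and the last part had differences between -0.06 and 0.10. Among deep libraries the fifth to the eighth part differed by -0.02 to 0.07. In these libraries the first 3 parts of rpoC2 differed by 0.15, 0.13 and 0.07, and the last by -0.07.

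**Figure D5:**
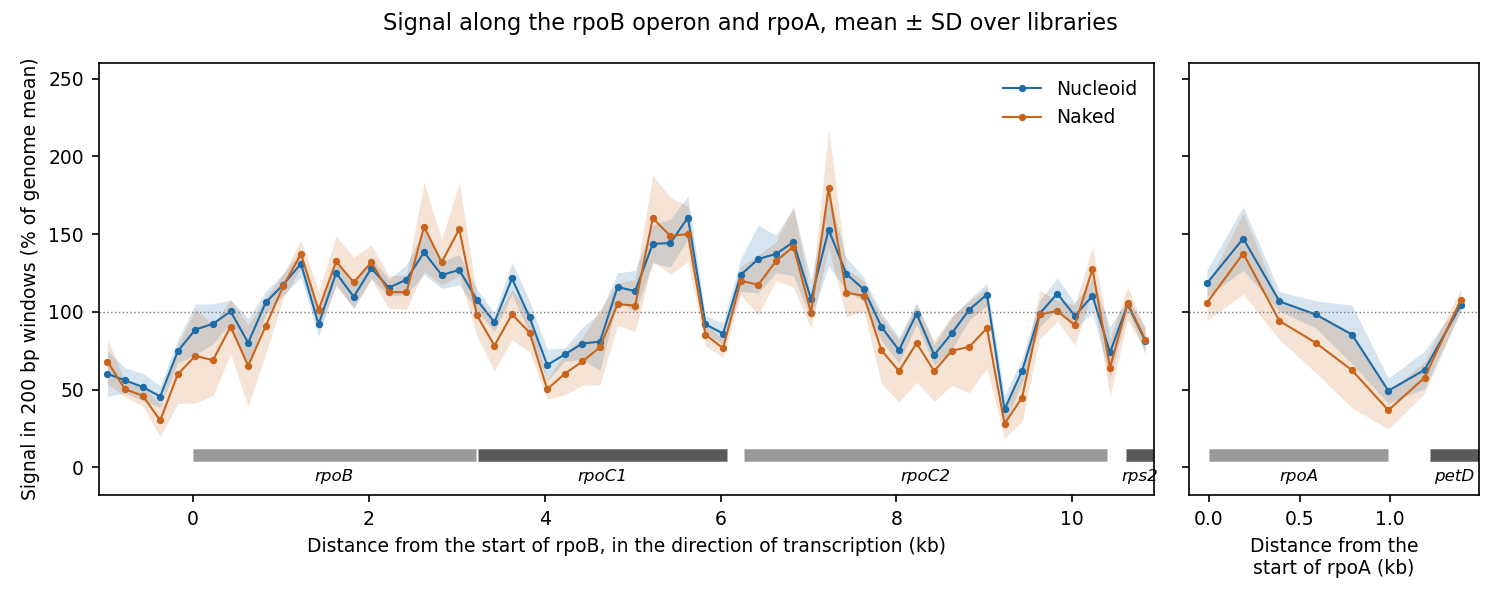
Signal in 200 bp windows (y axis, percent of the genome mean; lines are means and bands the SD over 10 Nucleoid and 11 Naked libraries) along the rpoB operon with its upstream spacer (left) and from rpoA into petD (right), by distance in the direction of transcription (x axis, kb); grey bars are genes. Both fractions rise and fall together, and the mean Naked signal is lower over the start of rpoB, the middle of rpoC2 and the end of rpoA, where the differences were smaller among deep libraries (0.03, -0.02 and -0.01 in the first 3 parts of rpoB).

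In a fit over all 772 windows of 200 bp, 22.8% passed, 11.7% as higher and 11.1% as lower in nucleoids. Of the 54 windows whose midpoint lies in an rpo gene 6 passed, or 11.1%, of which 5 were higher and 1 lower, a share below that of all windows. Fold changes were above 0 in 42 of the 54, with a median of 0.15 against 0.16 for all windows. None of the 4 windows with a midpoint in rpoA passed in this limma fit, although 3 had an unadjusted p under 0.05. All 4 were above 0 (0.11 to 0.51), and voom, which weights counts by their precision, called 1. A window across the end of rpoA with its midpoint outside, Pltd 77801 to 78000, passed (0.46, SE 0.16, limma adjusted p = 0.0412). This window was chosen after its values were seen. It did not pass with depth as a covariate (0.21, adjusted p = 0.260) or among deep libraries (0.12, adjusted p = 0.476). The single call in rpoB was at its start, Pltd positions 26001 to 26200 (TAIR10), with 92.3 ± 12.9 in nucleoids (SD, n = 10) and 68.9 ± 22.9 in naked DNA (SD, n = 11; log2 fold change 0.48, SE 0.17, limma adjusted p = 0.0498). In rpoC1 the largest of 3 calls were Pltd 22201 to 22400 (65.8 ± 10.2 against 50.2 ± 6.3; 0.38, SE 0.09, adjusted p = 0.0133) and Pltd 22601 to 22800 (121 ± 10 against 98.4 ± 16.3; 0.31, SE 0.09, adjusted p = 0.021).

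In rpoC2 the calls were Pltd 16801 to 17000, higher in nucleoids (62.1 ± 8.0 against 44.9 ± 15.2; 0.54, SE 0.18, limma adjusted p = 0.0396), and Pltd 16001 to 16200 near its end, lower in nucleoids (110 ± 11 against 128 ± 14; -0.21, SE 0.07, adjusted p = 0.0385). The lowest signal of any rpo window lay next to the first of these, at Pltd 17001 to 17200, with 37.3 ± 8.7 and 28.1 ± 9.6 (adjusted p = 0.0738), a window chosen after its values were seen. Only 1 of the 6, Pltd 22201 to 22400 in rpoC1, passed with log2 depth as a covariate (0.44, adjusted p = 0.0411), and among deep libraries 0 rpo windows passed by limma, with 8 at an unadjusted p under 0.05. Without replicate 6 the count was also 0, with 17 unadjusted, without replicate 7, 8 or 9 it was 1, without 10 it was 2, without 5 it was 3, and without 1 or 3 it was 11. With voom 15 of the 54 passed. Over all 772 windows, 3 passed with log2 depth as a covariate and 1 among deep libraries. For voom and for the fits without a replicate, the share of all windows is not given here. Those rpo counts therefore have no background beside them.

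DNA around the genes had less signal than the genes in most places. The spacer from rpoB to the next gene, trnC, holds the operon's promoter. Its place within the spacer was not determined here, so the stretch measured next need not include it. In the 250 bp of the spacer next to rpoB, signal ran from 60.4 to 85.7 in nucleoids (median 77.1) and from 30.1 to 84.9 in naked DNA (median 61.3). Naked replicates 9, 10 and 11 were lowest there, at 30.1 to 40.4, and the other Naked libraries, at 48.0 to 84.9, overlapped with nucleoids. The log2 ratio of this stretch to the rpoB gene was -0.59 ± 0.14 in nucleoids (SD, n = 10) and -1.02 ± 0.51 in naked DNA (SD, n = 11), below 0 in every library of both. The difference of 0.43 passed (SE 0.16, two-sided permutation test, p = 0.0133, adjusted 0.0133). It did not pass without Naked replicates 9, 10 and 11 (0.16, exact permutation, adjusted p = 0.103), with depth in the model (0.26, permutation, adjusted p = 0.114) or among deep libraries (0.045, exact permutation, adjusted p = 0.477). Taken over 500 bp upstream the difference was 0.49 (permutation, adjusted p = 0.00498), for which those settings are not given here. A window of this spacer, Pltd 26601 to 26800, passed over all windows (45.5 ± 7.0 against 30.2 ± 10.5; 0.66, SE 0.19, limma adjusted p = 0.0246), and it too was chosen after its values were seen. It did not pass with depth as a covariate (0.47, adjusted p = 0.137) or among deep libraries (0.28, adjusted p = 0.166).

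The other spacers are given as values. Between rpoC1 and rpoC2 signal was 99.1 ± 3.8 in nucleoids (SD, n = 10) and 95 ± 10.05 in naked DNA (SD, n = 11), close to the level of the genes beside it. Between rpoC2 and rps2 it was 74.4 ± 13.1 and 73.3 ± 15.7. Between rpoA and petD it was lowest, 46.9 ± 10.2 and 36.9 ± 10.2. The spacer between rpoB and rpoC1 is 26 bp long, and the lowest library held 10 counts in it, too few for a level.

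Among 3 genes near the rpo genes, none was higher in nucleoids at an adjusted or unadjusted p under 0.05, by limma or voom. Over all 112 genes 9.82% passed as higher and 24.1% as lower by limma, and the shares by voom are not given here. For petD, the cytochrome b6f subunit gene after rpoA, the log2 fold change was 0.03 (97.8 ± 1.8 against 96.1 ± 5.2, limma adjusted p = 0.491). For rps2, a ribosomal protein gene that follows rpoC2, it was -0.0056 (adjusted p = 0.939). The transfer RNA gene trnC, which lies beyond the rpoB promoter, was lower in nucleoids (-0.96, adjusted p = 0.000572). Whether these changes differed from that of rpoA was not tested.

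Of 5 ribosomal protein genes in the transcription unit of rpoA, 3 were higher in nucleoids by limma, or 2 by voom. Their median log2 fold change was 0.19. None of the 5 was lower, at an adjusted or unadjusted p under 0.05, by either. Of all protein-coding genes, 14.1% were higher and 8.97% lower by limma, while the shares by voom are not given here. The 3 were rps3 (0.54), rpl22 (0.33) and rpl14 (0.19), with adjusted p from 0.0316 to 0.0407. Of the others, rpl36 was at 0.17 (adjusted p = 0.327) and rpl16 at 0.17 (adjusted p = 0.0711), and neither passed. The list starts at rpl22 and does not hold every gene of the unit, so its share is not that of the whole unit. With log2 depth as a covariate, among deep libraries, without Naked replicates 9 to 11, on the window median scale and without any 1 of replicates 6 to 10, 0 of the 5 were higher, with 1 to 4 at an unadjusted p under 0.05, and without replicate 11 the count was 1. Over all genes, 1 was higher with depth as a covariate, 1 among deep libraries and 1 on the window median scale. For the fits without some libraries that count is not given here. The gene rps3 was at 0.11 in deep libraries, rpl22 at 0.07 and rpl14 at 0.01 (limma adjusted p = 0.152, 0.370 and 0.855). Of 4 other genes known for transcription by the nucleus-encoded polymerase, 2 were higher by limma, or 1 by voom, with a median of 0.18. Again none was lower by either, where the limma shares of all protein-coding genes were the same 14.1% higher and 8.97% lower. The 2 called by limma were accD, for a subunit of acetyl-CoA carboxylase (94.3 ± 3.0 against 87.0 ± 6.2, 0.12, adjusted p = 0.0407), and the large reading frame ycf2 (0.24, adjusted p = 0.0215). The protease gene clpP (0.13, adjusted p = 0.112) and ycf1 (0.49, adjusted p = 0.0698) did not pass. The calls of accD and ycf2 were lost with depth as a covariate (0.06 and 0.20, limma adjusted p = 0.263 and 0.106), among deep libraries (0.05 and 0.06, adjusted p = 0.309 and 0.373), on the window median scale (-0.04 and 0.09) and without replicate 6 or 8. That of accD was also lost without replicate 2, 5, 7, 9 or 10, without Naked replicates 9 to 11 and on the large single copy scale. The median over the rpo genes was 0.12, over all protein-coding genes 0.16 and over all genes 0.10.

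After the mean of each fraction was removed, the log2 signals of rpoC1 and rpoC2 varied together across the 21 libraries (Pearson's r = 0.89), more closely than rpoB with rpoC1 (0.59) or rpoB with rpoC2 (0.40). For rpoA, r was 0.57 with rpoC2, 0.45 with rpoC1 and 0.22 with rpoB. Outside the 4 genes and their direct neighbours, the genes most like rpoA over the 21 libraries were petB, for cytochrome b6 (r = 0.78), accD (0.69) and rpl22 (0.67). Those most like the mean of the 3 operon genes were petB (0.75), accD (0.69) and rpl16 (0.66). These coefficients are descriptions, since all genes of a library share its depth and its scale.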

How the data were processed

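Per the labels, libraries were made with a Nextera kit from chloroplasts enriched by centrifugation. The authors deposited whole-number counts per plastid position in 1 table, in TAIR10 positions per the file headers, with every column matched to a sample and 0 left unmatched. The submitters' processing notes name Trim Galore 0.4.1, Bowtie2 2.2.8.9 and bedtools 2.25.0. Duplicate removal, mapping quality and the shift of read ends to the Tn5 cut are not given in the sources used here. Duplicates, if kept, inflate counts without adding information, and an unshifted end would move a count by a few positions, which matters little over a gene. Intervals and counting errors cover counting or library spread only.

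Gene limits came from a RefSeq table of assembly TAIR10.1. That is not the name of the build of the counts, so its coordinates are not printed. The counts of the inverted repeats mirrored each other best at the same sum of positions as the copies of ndhB in that table (r = 0.93 across positions, next best 0.24 of 1301 sums tried), so both share plastid coordinates. After merging of copies, 112 genes remained of 129 entries. The strand of the rpo genes is textbook knowledge.

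Genes and 200 bp windows were tested with limma 3.58.1 (R 4.3.3) on log2(signal + 1), with two-sided p-values adjusted by Benjamini-Hochberg over all genes or windows, a threshold of 0.05 and a minimum mean scaled count of 10. A fold change is on the log2(signal + 1) scale, which slightly understates changes of low windows. A count model was not used, because commas in the column names kept the deposited values from passing a check as counts. The values per position may also be coverage, whose sums are not independent reads. The counting errors hold only for independent counts. limma's voom on the summed counts was an alternative. Ratios within libraries were tested with two-sided permutations (100000 resamples), or exactly where a group had fewer than 10 libraries (Python 3.11.15, scipy 1.17.1), and adjusted over the 3 ratios. With depth as a covariate, residuals of the depth model were permuted. The fits were tested on simulated data whose changes were larger than those of the rpo genes and not tied to depth. That test cannot show how the fits handle small changes or the difference in depth. The genes named are the 4 rpo genes, 3 genes near them, 5 ribosomal protein genes of rpoA's transcription unit (some genes that the rule names are not reported here), 4 genes of the nucleus-encoded polymerase and the 3 genes most correlated with rpoA or the operon. The windows named are the 2 called windows of each gene with the largest change. The members, lists and alternatives were chosen with earlier results of these data known, among them the fold change of rpoA and the unevenness of Naked replicates 9 to 11.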

Additional observations from a re-analysis of the deposited data

How the results depend on the processing

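The ratios of rpoA to the operon and of rpoC2 to rpoB kept their direction and call in all 17 and 16 alternatives, with 0.10 to 0.16 and 0.06 to 0.13. The rpoA fold change did so in 22 of 23, the exception being the window median scale (0.0726). rpoC1 and rpoC2 lost their calls with log2 depth as a covariate (0.102 and 0.101), in deep libraries (0.0606 and 0.0459), without Naked replicates 9 to 11 (0.0944 and 0.0813) and on the large single copy scale (0.0524 and 0.0564), and turned negative on the window median scale (-0.0374 and -0.0334). Without single replicate numbers they lay at 0.10 to 0.13 and 0.10 to 0.14. rpoB, near 0, changed sign with depth as a covariate (-0.0312), in deep libraries (-0.0141), on the window median (-0.149) and large single copy (-0.0596) scales, with voom (-0.000178) and without the first and last 100 bp of each gene (-0.00983), and lay at -0.0093 to 0.0125 without single replicate numbers. It never passed. The upstream ratio lost its call with depth as a covariate (0.26), in deep libraries (0.045) and without Naked replicates 9 to 11 (0.16). It was 0.36 to 0.50 without single replicate numbers.

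The count of called rpo windows, 6, was 20 with the replicate number as a block, 1 with depth as a covariate, 0 in deep libraries, 1 without Naked replicates 9 to 11, 14 with the identical columns taken as 2 libraries, 3 on the window median scale, 15 with voom, 27 of 112 windows of 100 bp, 3 of 22 windows of 500 bp, and 0 to 11 without single replicate numbers. It was 11 without replicate 1 or 3, 3 without 5, 0 without 6, 1 without 7, 8 or 9 and 2 without 10. Leaving out number 10 removed a Naked library only. The cause of these changes was not tested. Over all 772 windows, 176 passed in the main fit, 3 with depth as a covariate and 1 in deep libraries. For the other settings and window sizes the share of all windows is not given here, so those rpo counts have no background. With the replicate number as a block, rpoC1 (0.11, adjusted p = 0.0567) and rpoC2 (0.11, adjusted p = 0.0676) lost their calls, while rpoA (0.22) and all 3 ratios kept theirs. Libraries of the same number deviated together above r = 0.1 in 9 of 10 pairs (-0.02 to 0.77), but 1 of 10 correlated best with its own number, so the numbers were not taken as pairs. Depth limits spacers and windows most, with 10 counts in the shortest spacer of the lowest library.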
